A study of Mus musculus with 354 samples.

Results

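Tolvaptan was compared with vehicle in the liver of male mice of strain OR5612, 1 of 45 inbred Collaborative Cross strains on which the same experiment was run. The comparison holds 8 of the 354 arrays of the study: 4 livers from vehicle-treated mice (animals 271 to 274) and 4 from tolvaptan-treated mice (animals 275 to 278), taken 24 h after dosing. All animals were male, about 8 to 10 weeks old, acclimated for about 7 days, and fasted for about 18 h before necropsy, so that both groups share the fast. Each value is the log2 intensity of 1 probe set on an Affymetrix HT_MG-430 PM array hybridised with RNA from the median lobe of 1 liver. OR5612 was chosen by how its tolvaptan minus vehicle differences stood among the strains. These differences are therefore given as a description, with no test. Tests are kept for 2 measures that the choice did not use: the tolvaptan effect in the other 44 strains, which uses no OR5612 array, and the liver level of OR5612 over both treatments against the other 44 strains.

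Tolvaptan blocks the vasopressin V2 receptor (gene Avpr2), by which the kidney collecting duct takes back water, and is used against low blood sodium and polycystic kidney disease. Some patients develop liver injury on it, and the Collaborative Cross, a panel of inbred strains bred from several founder strains, was used here to look at the liver response on many genetic backgrounds. Liver cells respond to vasopressin mainly through another receptor, V1a (Avpr1a), which signals through Gq and calcium to glycogen breakdown. Tolvaptan is broken down mainly by CYP3A enzymes, and liver cells adapt to many drugs through the nuclear receptors CAR (Nr1i3) and PXR (Nr1i2), to misfolded proteins through the unfolded protein response, and to inflammation through the acute phase response.

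The 8 livers expressed hepatocyte genes strongly: the mean log2 intensity of 10 hepatocyte markers lay between 12.0 and 12.3 in every animal. Strain identity was checked over the 500 probe sets that best separate strains. Each OR5612 array correlated with the median of its strain's other arrays at r between 0.90 and 0.96. The median of no other strain gave r above 0.23. By contrast, 34 arrays of 19 other strains fell under 0.5 with their own strain. Animals 274 and 278 were scanned on the earliest of 6 scan dates (scan 1) and the other 6 on scan 3, so each scan holds both treatments. Within the groups, animal 277 (tolvaptan) had 455 genes and animal 273 (vehicle) 427 genes more than 1 log2 unit from the mean of the 3 other animals of its group, against 119 to 304 for the other 6. Values without animal 277 are given for part of the genes and lists, so a missing value does not mean that leaving it out changed nothing. Nothing in the labels ties the animals to litters or cages, and RNA from bulk liver cannot separate fewer cells of a type from less RNA per cell.

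No gene passed an adjusted p of 0.05 in the limma fit within OR5612 (0%). At an unadjusted p under 0.05 stood 502 of 14125 genes (3.55%), 311 higher and 191 lower under tolvaptan. The number at that level in the other strains ran from 180 to 2491 with a median of 688.5, and 19 of them had fewer than OR5612. In 211 genes (1.49%) all 4 tolvaptan animals lay above all 4 vehicle animals, and in 156 genes (1.1%) all 4 lay below. A difference of at least 2-fold was seen for 39 genes, 21 higher and 18 lower. The median difference over all genes was 0.01, and 51.7% of genes were higher. These counts come from the contrast by which the strain was chosen, and nothing is read from them.

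The receptor through which liver cells sense vasopressin is described because it belongs to the drug genes, which were named whatever their difference. It was not among the genes named for having the smallest p. Avpr1a read 4.48, 5.09, 3.60 and 4.14 in the 4 vehicle animals and 5.19, 5.17, 5.75 and 5.12 in the 4 tolvaptan animals. The groups did not overlap, although vehicle animal 272 almost reached the lowest tolvaptan animal, 278. The difference of 0.98 ± 0.45 (SE, log2; 1.97-fold) was 0.98 in the scan 1 pair and 0.98 over the 6 animals of scan 3, and both probe sets of the gene were higher. It was the highest of the 45 strains, whose other members ran from -0.97 to 0.46, with a mean of -0.06 (limma adjusted p = 0.876). With each animal left out in turn the OR5612 difference ran from 0.72 to 1.22. Avpr2, the drug's intended target, was too dim to test in liver (2.38 ± 0.17 under vehicle and 2.32 ± 0.10 under tolvaptan, SD, n = 4). Of the 22 genes tested around vasopressin and osmotic balance, 13 were higher and 9 lower with a median of 0.04. Avpr1a was the sole member without overlap, where 1.49% of all genes separated upward and 1.1% downward. Prkca, a kinase downstream of Gq, was 0.55 higher, angiotensinogen (Agt) was 0.43 higher (0.19 without animal 277), and Nfat5, the osmotic stress factor, was 0.30 lower.

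Genes that handle the drug showed small or scattered differences. Cyp3a11, the main CYP3A enzyme of mouse liver, read 12.30, 12.82, 12.81 and 12.82 under vehicle and 12.91, 12.84, 12.89 and 12.57 under tolvaptan, a difference of 0.11 that became -0.02 without vehicle animal 271. Cyp2b10, the classical CAR target, read 3.70, 2.82, 4.47 and 3.04 under vehicle and 3.26, 3.96, 8.26 and 1.87 under tolvaptan. The 0.83 difference lay in animal 277 alone and turned to -0.43 without it. The bile salt export pump (Abcb11) differed by 0.16, the canalicular exporter Abcc2 by 0.13, and the bile acid importer Slc10a1 by 0.02, each with overlapping groups, and each changed sign when 1 animal was left out. Abcb1a, a drug efflux pump, was dim and 0.43 lower, the lowest of 45 strains, but 1 of its 2 probe sets went the other way. Among the 27 CAR and PXR targets tested, 15 were higher and 12 lower (median 0.03).

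The largest difference of the strain was in Derl3, a membrane protein that helps move misfolded proteins out of the endoplasmic reticulum (ER) and is a target of the unfolded protein response. Derl3 read 6.34, 5.91, 5.77 and 5.83 under vehicle and 8.23, 10.85, 8.57 and 7.88 under tolvaptan. Every tolvaptan liver was at least 1 log2 unit above every vehicle liver, and animal 276 stood highest. The difference was 2.92 ± 0.88 (SE), or 7.57-fold. It was 2.05 in the scan 1 pair and 3.21 in scan 3, and it ranked 5 of the 45 strains. Derl3 also rose across the other 44 strains, by a mean of 0.95 ± 0.13 (SE; limma adjusted p = 8.59e-08), with 34 of 44 strains above 0. That call held without the 34 arrays off their labelled strain (adjusted p = 1.92e-05) and with strains as the unit (adjusted p = 0.0198).

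Other ER genes leaned the same way in OR5612. Of 26 ER chaperone and unfolded protein response genes tested, 23 were higher and 3 lower under tolvaptan, with a median of 0.19 against 0.01 over all genes. Apart from Derl3, 3 of them did not overlap between the groups: the lectin chaperone calreticulin (Calr, 0.66 ± 0.25), the disulfide isomerase Pdia6 (0.61 ± 0.28) and the co-chaperone Dnajb11 (0.56 ± 0.27). Over all genes, 1.49% separated upward and 1.1% downward. Calr read 11.32, 11.02, 11.44 and 11.42 under vehicle and 12.14, 11.85, 12.42 and 11.44 under tolvaptan, so that animal 278 only just cleared the vehicle group. Sdf2l1, an ER stress gene, was 1.0 higher with overlap (0.57 without animal 277), and the disulfide isomerase Pdia4 was 0.63 higher with overlap (0.40 without it). Dnajb11 was 0.37 higher without that animal. The central chaperone BiP (Hspa5) differed by 0.16, which became -0.06 without animal 277, and the sensor Atf6 was 0.18 lower. The list median was 0.09 in the scan 1 pair and 0.24 in scan 3, and without animal 277 it was 0.11 with 17 of 26 genes higher. With each animal left out in turn it ran from 0.11 to 0.36. Pdia6 rose by 0.19 (limma adjusted p = 0.0104) and Pdia4 by 0.19 (adjusted p = 0.0251) in the other 44 strains, but both calls were lost without the off-strain arrays (0.0729 and 0.105) and with strains as the unit (0.277 and 0.261). Pdia6 and Dnajb11 were singled out after their values were seen.

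**Figure D1:**
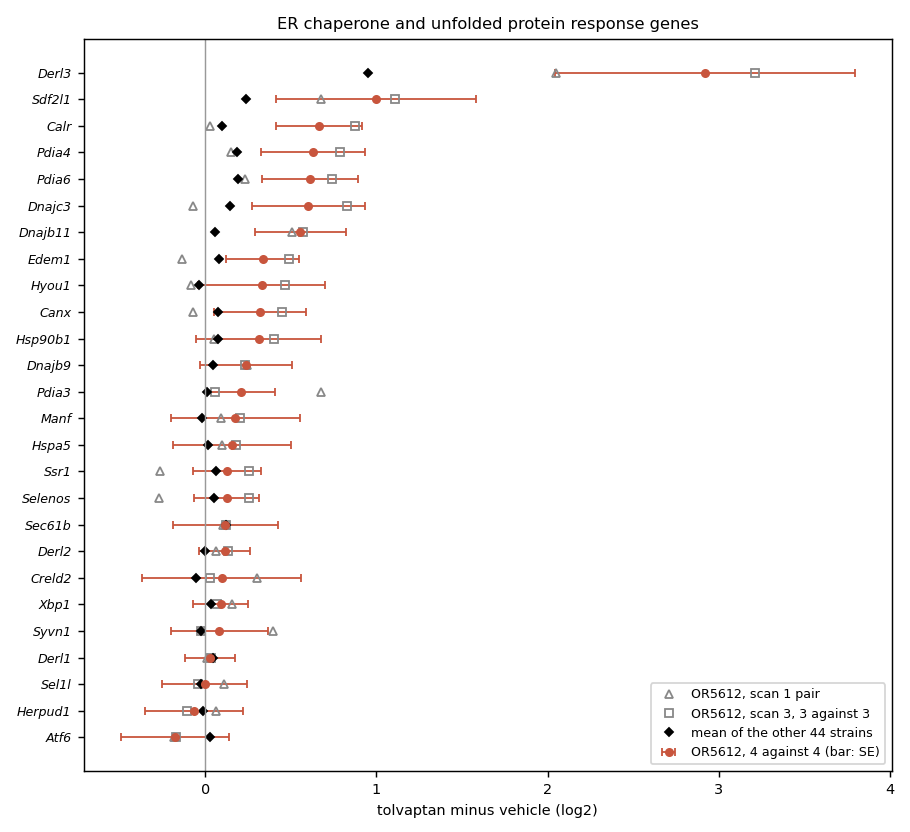
Tolvaptan minus vehicle (log2, x axis) for the 26 ER chaperone and unfolded protein response genes tested, with the OR5612 difference and its SE (filled circles), the scan 1 pair (triangles), scan 3 (squares) and the mean of the other 44 strains (diamonds). Derl3 stands far to the right at 2.92, 23 of the 26 circles lie above 0, and the triangles are more scattered, with a median of 0.09.

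The promoters of these genes are shown because several carry the ER stress response element, the sequence through which ATF6 and NF-Y act. It was searched as CCAAT, 9 bases of any kind, and CCACG, on both strands of the RefSeq promoter windows (GRCm38.p6, 250 bases before to 50 after each annotated start), and no other motif was searched. It occurred in 39 of 32851 windows (0.119%) and in 0.159% of the tested genes that have a window. Of the 22 listed ER genes with a window, 9 held it: Calr, Canx, Creld2, Derl3, Dnajc3, Hsp90b1, Hspa5, Pdia6 and Syvn1. The list is made of textbook members of this response, so the share is a property of the list. The median difference in OR5612 was 0.32 over these 9 genes and 0.12 over the 13 with a window and no match. All 9 of the former and 11 of the latter were higher, and the split was not tested. A match is a stretch of letters and was not shown to be bound here. The stretches of Derl3, Calr and Pdia6, whose groups did not overlap, and of Hspa5, which differed little, are printed 5′ to 3′ on the gene's strand with 20 bases on either side and the 2 fixed parts in capitals. In Derl3 and Calr the element lies on the opposite strand, so the capitals read CGTGG and ATTGG.
Derl3: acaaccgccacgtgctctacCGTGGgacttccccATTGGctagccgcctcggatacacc
Calr: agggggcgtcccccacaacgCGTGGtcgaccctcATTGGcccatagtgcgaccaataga
Pdia6: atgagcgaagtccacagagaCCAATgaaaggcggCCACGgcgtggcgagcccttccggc
Hspa5: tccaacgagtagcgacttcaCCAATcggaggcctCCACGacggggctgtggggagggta
The Derl3 stretch is chr10:75893222-75893280 on the plus strand, and the Calr stretch is chr8:84847055-84847113 on the minus strand. The Pdia6 stretch is chr12:17266471-17266529 and the Hspa5 stretch chr2:34772005-34772063, both on the plus strand. The same element with the same spacing thus stands before Derl3, with the largest difference of the strain, and before Hspa5, at 0.16.

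A pair of neighbouring secreted ribonucleases differed together. Angiogenin (Ang), a ribonuclease that promotes vessel growth, read 9.41, 9.40, 8.99 and 10.24 under vehicle and 9.73, 10.50, 10.90 and 10.54 under tolvaptan. Tolvaptan animal 275 fell below vehicle animal 274, so the groups overlapped. The difference of 0.91 ± 0.20 (SE) was the highest of 45 strains, at 1.11 in scan 3 and 0.30 in the scan 1 pair. With each animal left out in turn it ran from 0.73, without animal 277, to 1.12. Rnase4 read 11.27, 11.37, 10.54 and 11.64 under vehicle and 11.67, 11.74, 12.31 and 11.93 under tolvaptan. Its groups did not overlap, although vehicle animal 274 almost met tolvaptan animal 275, and its difference of 0.70 ± 0.20 was also the highest of 45. With each animal left out in turn the Rnase4 difference ran from 0.50 to 0.81. In the other 44 strains Ang rose by 0.17 ± 0.03 (SE; limma adjusted p = 0.000862), with 33 of 44 strains above 0, and this held without the off-strain arrays (0.0282) and with strains as the unit (0.00917). Rnase4 did not pass there (0.05, adjusted p = 0.663). RefSeq gives Ang and Rnase4 1 promoter window in common, and Rnase4 a second of its own, so the shared window is printed without its last 50 bases, in lower case throughout because no motif is marked in it.
Ang and Rnase4: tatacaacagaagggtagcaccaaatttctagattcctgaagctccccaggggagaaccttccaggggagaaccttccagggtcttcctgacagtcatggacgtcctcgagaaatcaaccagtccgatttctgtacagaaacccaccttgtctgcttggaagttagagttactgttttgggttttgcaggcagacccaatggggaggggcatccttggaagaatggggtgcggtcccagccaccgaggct
It lies at chr14:51090827-51091076 (GRCm38.p6) on the plus strand.

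**Figure D2:**
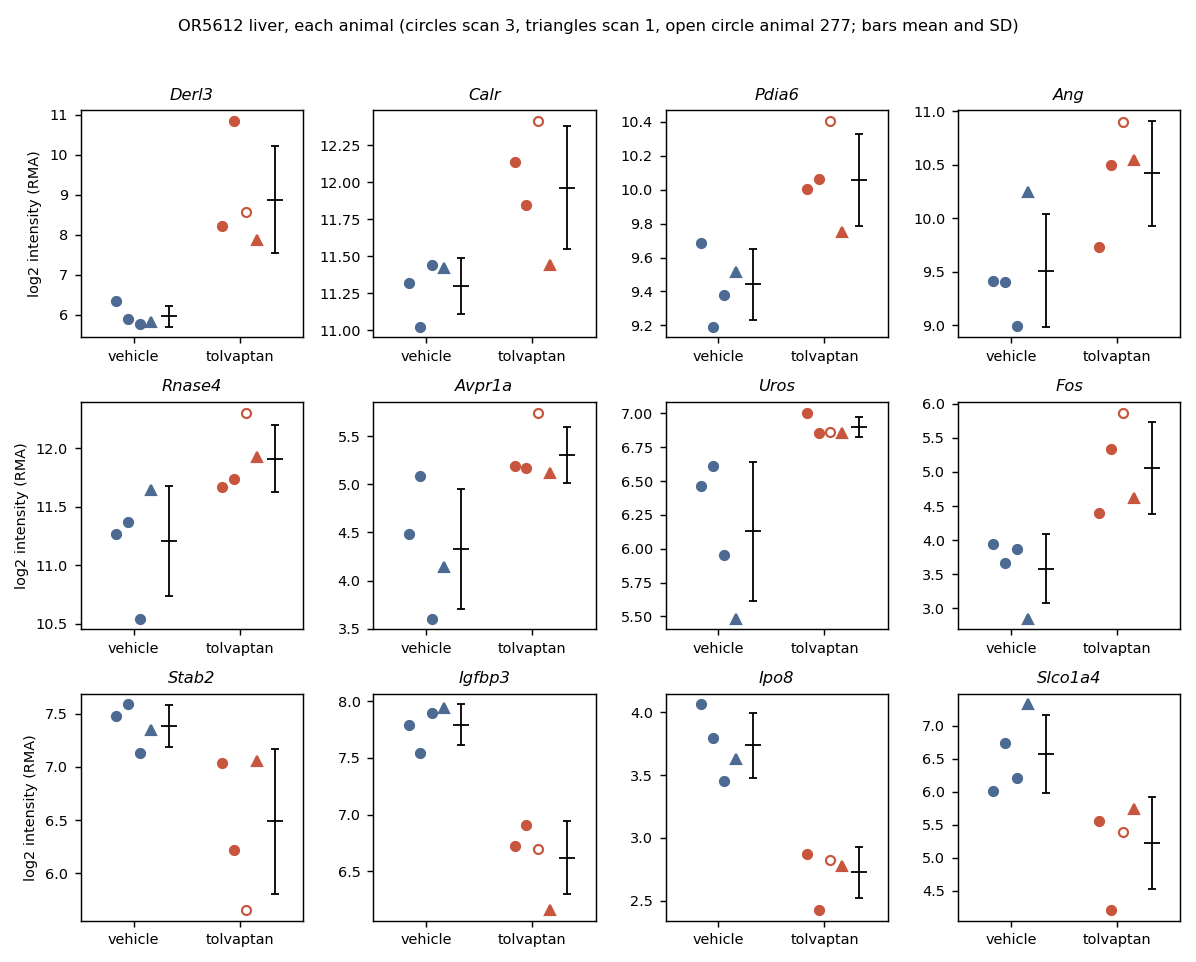
Log2 intensity (y axis, RMA) of 12 genes in the 4 vehicle (blue) and 4 tolvaptan (red) livers of OR5612, with circles for scan 3, triangles for scan 1, an open circle for animal 277, and bars for the mean and SD. Derl3 separates by more than 1 log2 unit, Ang overlaps through vehicle animal 274, and in Calr, Avpr1a and Rnase4 the nearest animals of the groups almost meet.

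The rest of the 15 genes highest by the naming rule, which takes the smallest p where none is called, were mostly low-intensity probe sets. The immediate early gene Fos, which comes from its own list, read 3.94, 3.67, 3.87 and 2.85 under vehicle and 4.39, 5.34, 5.87 and 4.62 under tolvaptan, a difference of 1.48 ± 0.52 with no overlap that was the highest of 45 strains. The epithelial keratin Krt16 went from 1.87 ± 0.23 to 3.46 ± 0.46 (SD, n = 4), also without overlap and highest of 45, but its vehicle level is below the typical array median of 2.89. Sting1, the adaptor of cytosolic DNA sensing, read 2.37, 2.59, 2.36 and 2.44 under vehicle and 3.42, 3.27, 2.65 and 3.41 under tolvaptan, a difference of 0.75. Aif1l, an actin-binding protein, was 0.80 higher in the chosen probe set, which fell to 0.27 when its 3 probe sets were averaged. Syt12, a synaptotagmin, was 1.02 higher through scan 3 (1.55), while the scan 1 pair gave -0.58, and the difference was 0.61 without animal 277. BC005624 (0.75) and 1810065E05Rik (0.77) did not overlap, and Xpnpep2, Hmgn3, Cpsf6, Clec3b, Acan and 1110019D14Rik differed by 0.45 to 0.56. In all, 7 of the 30 genes named by the rule in the 2 directions had vehicle and tolvaptan means that were both under 2.89.

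Among the lowest, Stab2 and Igfbp3 were the best expressed. Stab2, the hyaluronan scavenger receptor of sinusoidal endothelial cells, read 7.48, 7.59, 7.13 and 7.35 under vehicle and 7.03, 6.22, 5.65 and 7.05 under tolvaptan. The groups did not overlap, and animals 276 and 277 were clearly lower than 275 and 278. The difference was -0.90 ± 0.24 (SE), at -0.29 in the scan 1 pair, -1.10 in scan 3 and -0.62 without animal 277. In the other 44 strains Stab2 fell by 0.17 (limma adjusted p = 0.00525; 0.0193 without the off-strain arrays), but with strains as the unit it did not pass (0.296). Igfbp3, the main carrier of IGF1 in blood, read 7.79, 7.54, 7.90 and 7.94 under vehicle and 6.72, 6.91, 6.70 and 6.15 under tolvaptan. All 4 tolvaptan livers lay well below all 4 vehicle livers, a difference of -1.17 ± 0.41 that was -1.79 in scan 1 and -0.97 in scan 3, and the other strains averaged -0.09 (adjusted p = 0.718). Slco1a4, an organic anion uptake transporter, read 6.01, 6.74, 6.21 and 7.32 under vehicle and 5.56, 4.20, 5.38 and 5.74 under tolvaptan, a difference of -1.35 ± 0.72 without overlap. The liver transcription factor Onecut1 was 0.99 lower without overlap, at -1.5 in scan 1 and -0.82 in scan 3.

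Several lower genes were dim or uneven across probe sets. The nuclear import factor Ipo8 read 4.06, 3.80, 3.46 and 3.63 under vehicle and 2.87, 2.42, 2.83 and 2.78 under tolvaptan, a difference of -1.01 ± 0.26 and the lowest of 45 strains. Rrp12, a ribosome assembly factor, was 0.88 lower and Zfp39 was 0.68 lower, each without overlap, and the lymphatic growth factor Vegfc was 0.74 lower with overlap. Irak1bp1 was 1.06 lower without overlap in its chosen probe set and 0.38 lower over the mean of its 2 probe sets. Hip1 was 0.54 lower, but only 2 of its 5 probe sets were lower and their mean was -0.02. Clec4d, Ccdc62, Eme1, Pard6g, D7Ertd443e, A530053G22Rik and B930095G15Rik completed the 15, with differences from -0.91 to -0.47. The mitotic gene Ube2c was 0.89 lower without overlap, yet the 26 cell cycle genes split 14 higher and 12 lower.

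**Figure D3:**
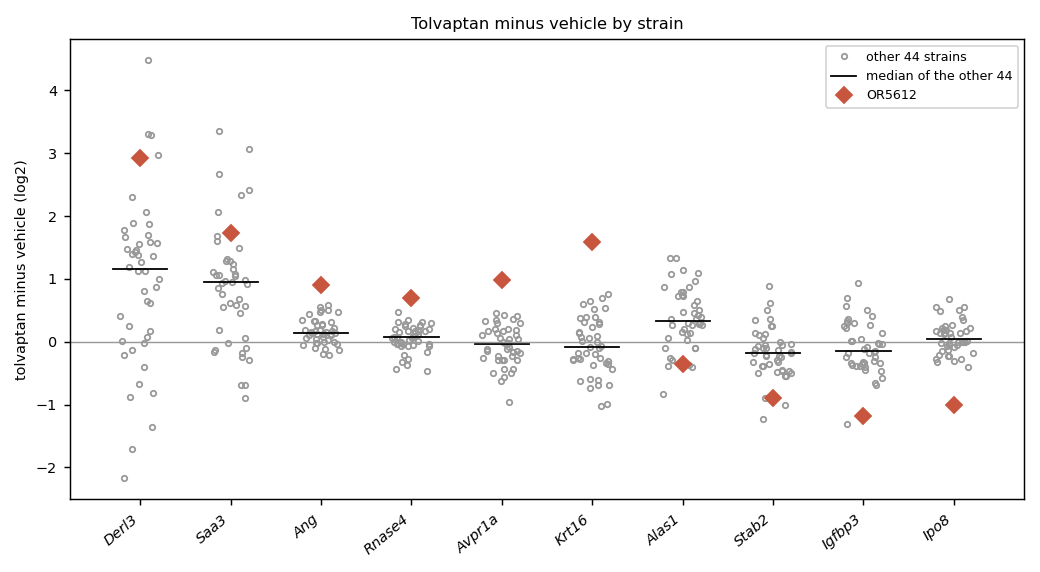
Tolvaptan minus vehicle (log2, y axis) of 10 genes in each of the 45 strains, with OR5612 as a red diamond, the other 44 strains as open circles and their median as a line. OR5612 is above every other strain in Ang, Rnase4, Avpr1a and Krt16 and below every other strain in Ipo8, while Derl3 at 2.92 and Saa3 at 1.73 lie within the range of the others. Ang, Rnase4, Krt16 and Ipo8 were picked by their difference in OR5612, which favours such ranks.

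Acute phase genes were higher in number but uneven between animals. Of 27 tested, 22 were higher and 5 lower (median 0.21). None separated the groups, where 1.49% of all genes separated upward and 1.1% downward. Saa3, an inducible serum amyloid A, read 6.62, 5.86, 7.59 and 7.22 under vehicle and 7.03, 9.82, 9.58 and 7.80 under tolvaptan. Animals 276 and 277 carried this difference of 1.73 ± 0.80 (1.42 without animal 277), while 275 and 278 lay within or just above the vehicle range. The same pair stood high in lipocalin 2 (Lcn2, 8.92, 11.66, 12.64 and 9.43 against 7.63 to 10.38 under vehicle) and in orosomucoid 2 (Orm2, 1.38 higher). Lcn2 was 1.74 higher, and 1.06 higher without animal 277. The list median was 0.27 in scan 3 and -0.08 in the scan 1 pair. Saa3 rose in the other 44 strains by 0.89 (limma adjusted p = 7.41e-08), which held without the off-strain arrays (9.48e-05) and with strains as the unit (0.000728). Hepcidin, the iron-regulating hormone, went the other way: Hamp read 11.53, 11.70, 11.80 and 11.23 under vehicle and 9.79, 10.92, 8.78 and 11.67 under tolvaptan. Hamp was 1.28 lower and its near-identical copy Hamp2 1.66 lower. But the scan 1 pair gave 0.43 and 0.56, so the lower values lay in scan 3 alone. Without animal 277 Hamp was 0.77 lower and Hamp2 1.28 lower. The antiprotease Slpi was 1.57 higher, with animal 277 at 8.32 against 4.4 to 5.36 in the 3 other tolvaptan animals, and 0.69 higher without it. It rose by 0.44 in the other 44 strains (adjusted p = 0.00138), a call lost with strains as the unit (0.0832).

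Genes that are normally higher in male than in female liver were lower under tolvaptan in OR5612. Of 14 such genes tested, 12 were lower and 2 higher, with a median of -0.39 that ranked 43 of 45 strains, at -0.36 in the scan 1 pair and -0.40 in scan 3. The direction was not particular to OR5612. In the mean of the other 44 strains only 1 of the 14 was higher, with a smaller median of -0.05. The mean level of the list was 10.76, 10.77, 10.65 and 10.75 in the vehicle animals and 10.61, 10.32, 9.99 and 10.35 in the tolvaptan animals, so the groups did not overlap. Animal 277 was lowest, and without it the median was -0.28 with 12 of 14 still lower. The steroid enzyme Hsd3b5 was 1.14 lower, the fatty acid elongase Elovl3 0.98 lower, the oxysterol hydroxylase Cyp7b1 0.67 lower and the uptake transporter Slco1a1 0.62 lower, each with overlap. Without animal 277 Hsd3b5 was 0.29 lower and Slco1a1 0.30 lower. Socs2, a feedback inhibitor of growth hormone signalling, read 6.96, 7.06, 3.66 and 6.93 under tolvaptan against 5.64 to 7.82 under vehicle, so its -0.99 difference lay largely in animal 277 and was -0.13 without it. The 16 female-biased genes tested split 9 higher and 7 lower.

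Other stress and immune lists leaned upward by small amounts. Of 28 interferon response genes tested 22 were higher (median 0.23; Ifi47 0.72, Usp18 0.56), at 0.55 in scan 1 and 0.14 in scan 3, and 26 of 28 were higher without animal 277 (median 0.38). Without animal 275 the interferon median was 0.05. Heat shock genes were higher in 11 of 13 (median 0.21), among them the chaperones Hspa1b at 0.60 and Hsph1 at 0.39, but without animal 277 the median was 0.06, Hspa1b stood at 0.30 and Hsph1 at 0.06. NRF2 targets were higher in 16 of 22 (median 0.13) and proteasome subunits in 21 of 28 (median 0.12), and both medians lay in scan 3 (0.14 and 0.17) and not in the scan 1 pair (-0.04 and 0.00). The NRF2 median was 0.05 without animal 276. Their highest members were Nqo1 at 0.46 and Psma4 at 0.36. The chemokine Cxcl1 was 1.21 higher with overlap. Some lists leaned downward: 38 of 52 respiratory chain genes (median -0.06), 22 of 28 urea cycle and amino acid genes (median -0.09) and 22 of 33 complement and coagulation genes (median -0.07) were lower. The mean of the other 44 strains leaned the same way, with 11, 5 and 10 of these genes higher (medians -0.02, -0.03 and -0.02). Of the proteasome subunits, 27 of 28 were higher there (median 0.03). Cox5b, a subunit of cytochrome oxidase, read 10.05, 10.05, 10.04 and 10.06 under vehicle and 9.76, 9.70, 9.72 and 9.70 under tolvaptan, the tightest separation among the named genes. Without animal 277, 16 of 33 complement genes were higher (median 0.00). PPAR-alpha targets were lower in 22 of 32 (median -0.09), but without animal 277 17 of 32 were higher. Cholesterol synthesis genes split 8 and 8, with 12 of 16 higher without animal 277, and the 17 glutathione S-transferases split 10 higher and 7 lower.

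**Figure D4:**
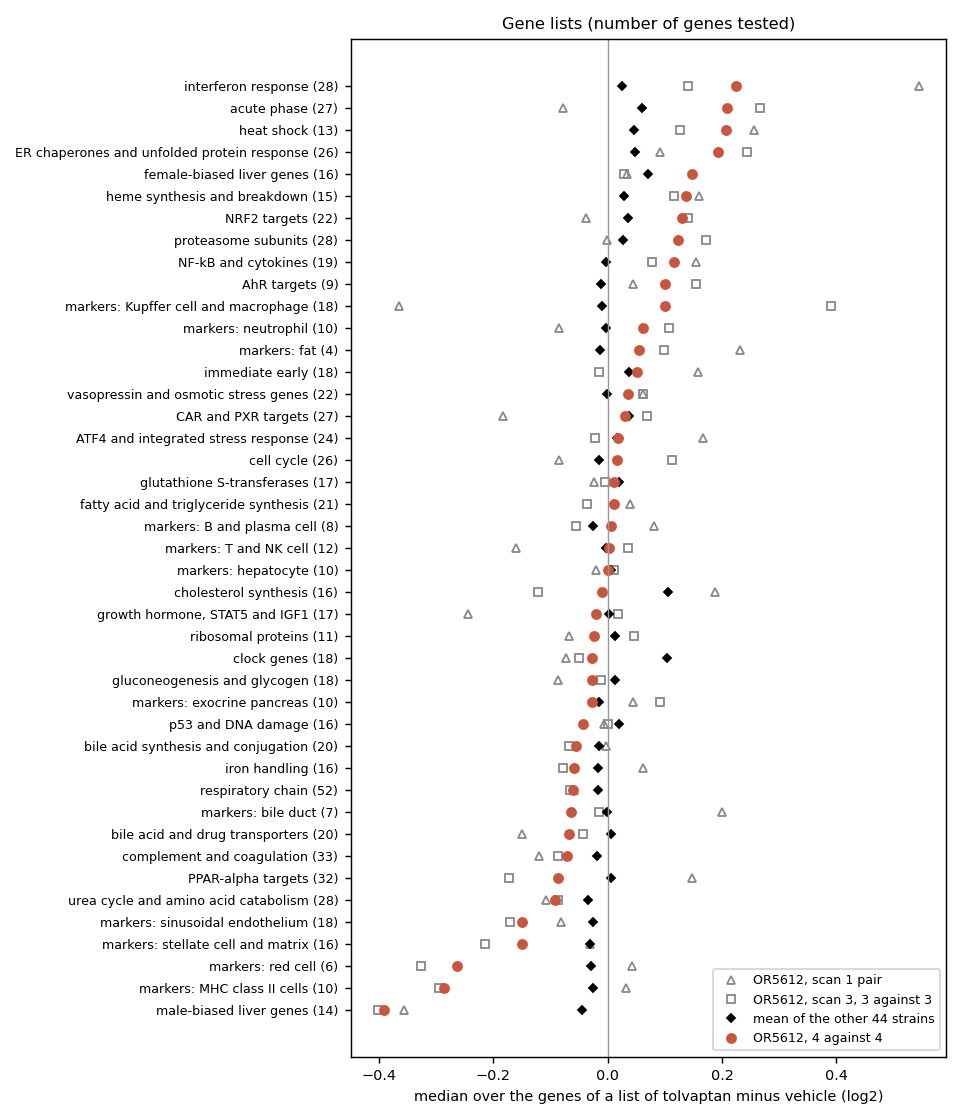
Median tolvaptan minus vehicle (log2, x axis) over the genes of each list, with OR5612 as filled circles, its scan 1 pair as triangles, its scan 3 animals as squares and the mean of the other 44 strains as diamonds. Circles run from -0.39 for male-biased genes to 0.23 for interferon genes. Diamonds run from -0.05 for male-biased genes to 0.11 for cholesterol synthesis genes. The triangle and square lie on opposite sides of 0 for several lists, among them acute phase genes, Kupffer cell markers, PPAR-alpha targets and cholesterol synthesis genes.

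Markers of the other liver cell types showed differences that depended in part on single animals. Sinusoidal endothelial markers were lower in 14 of 18 (median -0.15), with Stab2 at the bottom and Pecam1, at 0.32, highest, and without animal 277 the median was -0.06 with 12 of 18 lower. Their mean level was 6.17 to 6.28 in the vehicle animals and 5.87 to 6.16 in the tolvaptan animals. Stellate and matrix markers were lower in 13 of 16 (median -0.15), with a mean level of 5.41 to 5.69 under vehicle and 5.19 to 5.51 under tolvaptan, and without animal 277 the median was -0.08. MHC class II markers averaged 5.61 to 6.54 under vehicle and 6.35, 5.97, 4.64 and 5.98 under tolvaptan, so animal 277 stood alone below. Without it the median of these 10 genes went from -0.29 to 0.11. Kupffer cell and macrophage markers were higher in 13 of 18 (median 0.10), but without vehicle animal 271 in 6 of 18 (median -0.04). The median stood at -0.37 in the scan 1 pair and 0.39 in scan 3, with the lysosomal marker Cd68 at 0.52 the largest and the defining markers Clec4f and Timd4 at -0.01 and 0.02. The part of these cell types in the lists above was not tested. T and NK cell, B and plasma cell and neutrophil markers had mean levels of 2.69 to 3.29 in all 8 livers, near the array median.

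Genes that tolvaptan changed across the other strains mostly leaned the same way in OR5612. In the other 44 strains 42 genes rose (0.297%) and 22 fell (0.156%) at a limma adjusted p of 0.05. In OR5612, 40 of the 42 were higher and 19 of the 22 were lower, with medians of 0.28 and -0.20 against 0.17 and -0.14 in the other strains. Groups separated in the same direction in 7 of the 64, 5 above (Derl3, Pdia6, Maged2, Ctps2 and Pomp) and 2 below (Stab2 and Tmem42), where 1.49% of all genes separated upward and 1.1% downward. Across all 14125 genes the OR5612 differences and the other strains' mean correlated at r = 0.26, a description over genes that are not independent. Without the off-strain arrays 24 genes passed, 21 of them among the 64, and with strains as the unit 14 passed, 13 of them among the 64.

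Alas1, the first enzyme of heme synthesis and a common marker of drug induction, did not share this direction. It rose in the other 44 strains by 0.36 ± 0.08 (SE; limma adjusted p = 0.00261), with 34 of 44 above 0, and held without the off-strain arrays (0.0106) and with strains as the unit (0.0198). In OR5612 it read 11.67, 11.57, 12.07 and 11.59 under vehicle and 11.45, 12.28, 11.29 and 10.46 under tolvaptan. The difference of -0.35 ± 0.49 ranked 41 of 45 strains, with animal 278 lowest and 276 highest, and its departure from the other strains was not tested because OR5612 was chosen by such differences. Alas1 had the highest mean level of the 45 strains in OR5612, 11.55 against 9.94 to 11.40, but the level test did not pass (0.59, adjusted p = 0.138). Another heme enzyme, uroporphyrinogen III synthase (Uros), read 6.46, 6.61, 5.96 and 5.48 under vehicle and 7.01, 6.86, 6.87 and 6.86 under tolvaptan. This 0.77 ± 0.26 difference had no overlap and was the highest of 45 strains. Of 15 heme genes tested 10 were higher and 5 lower. The antiprotease Wfdc12 (0.57, and -0.08 without animal 277) and the serine synthesis enzyme Psat1 (0.09) rose in the other strains by 0.40 and 0.32, and their calls were lost under both checks.

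The level of OR5612 over both treatments was tested against the other 44 strains. At an adjusted p of 0.05, limma called 975 genes higher (6.9%) and 737 lower (5.22%), and 230 genes (1.63%) were also at least 2-fold apart, 112 higher and 118 lower. This is a usual number for the panel: 232 genes differed 2-fold in level, which ranks 21 of 45, and the median of the other strains was 225.5. OR5612 was the highest of 45 strains in 33 of the 230 genes and the lowest in 34. Such counts are usual for the panel as well. By plain strain means, without a test, 62 genes were both 2-fold apart and most extreme in OR5612, which ranks 24 of 45. The median of the other strains was 65.

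The vasopressin receptor that was higher under tolvaptan was low in this strain in level. Avpr1a averaged 4.82 in OR5612 and 6.47 in the other strains, which ran from 5.27 to 7.46. Its level was lower by -1.64 ± 0.24 (SE, log2; limma adjusted p = 9.69e-09), the lowest of 45, and both probe sets were lower. In vehicle arrays alone the difference was -2.16, a value that shares its 4 livers with the tolvaptan difference. The tolvaptan livers, at 5.12 to 5.75, thus stood at the low edge of the other strains. The aquaporins Aqp11 (-1.56, adjusted p = 2.51e-15) and Aqp8 (-1.35, adjusted p = 0.000148) were also lower, and of 22 vasopressin and osmotic genes tested, 8 were lower and 1 higher at an adjusted p of 0.05, against 5.22% and 6.9% of all genes.

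Drug-sensing receptors were low as well. CAR (Nr1i3) read 7.33, 7.78, 7.41 and 7.37 under vehicle and 7.54, 7.98, 7.74 and 7.90 under tolvaptan, and its mean of 7.63 was just below the lowest other strain at 7.65 (difference -1.38 ± 0.17, limma adjusted p = 1.11e-11). The AhR receptor gene (Ahr) was also lowest of 45 (-0.91, adjusted p = 1.15e-05), but its other probe set was at -0.25. PXR (Nr1i2) did not differ by test (0.17, adjusted p = 0.371). The CAR target Cyp2b10 averaged 3.92 against 6.90 in the other strains, which ran from 3.31 to 11.46 (-3.41 ± 0.59, adjusted p = 1.21e-06, 42 of 45). Cyp2c39 averaged 2.58, under the typical array median of 2.89, against 6.80 in the other strains, which ran from 2.37 to 9.50. Its level was lower by test (adjusted p = 7.62e-23), but with OR5612 that dim the size of the difference is not measured. Cyp2c29 was lower by -0.84 (0.000134), Cyp1a2 by -0.77 (5.17e-05), Gstt1 by -1.17 (0.0031) and Cyp2b9 by -1.21 (0.0366). Of 27 CAR and PXR targets tested, 7 were lower, with Nr1i3 counted, and Ces2a alone was higher (all genes 5.22% and 6.9%). Cyp3a11 did not differ by test (-0.04, adjusted p = 0.93). The Cyp2c and Cyp2b genes are near-identical families, so signal may be shared between members. Nr1i3, Ahr, Blvrb and the list members in this paragraph were singled out after their values were seen.

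Other pathways differed in level too. PPAR-alpha targets were lower in 9 of 32 (all genes 5.22%) and higher in none, led by the acyl-CoA thioesterase Acot3 (-2.48, limma adjusted p = 7.75e-06), the fatty acid hydroxylase Cyp4a10 (-1.71, 3.66e-08) and Acot1 (-1.68, 5.08e-05). The carnitine transporter Slc22a5 was lowest of 45 (-1.09, 2.92e-06). In the heme list, Uros (-1.15 ± 0.14, adjusted p = 5.75e-13) and biliverdin reductase B (Blvrb, -1.02 ± 0.13, adjusted p = 9.44e-11) were lowest of 45, and Hmox1 was higher (0.78, 0.00896). The other, dimmer probe set of Uros was at -0.08. The NRF2 target Nqo1 was lower (-1.41, 1.56e-08). Male-biased genes were higher in level in 7 of 14 (all genes 6.9%) and lower in none, among them Elovl3 (1.75, highest of 45, adjusted p = 0.000235), Hsd3b5 (1.93, 0.0039) and Hsd3b2 (2.23, 9.08e-06), so that a list that was lower under tolvaptan in OR5612 was high there in level. Against the same 6.9%, MHC class II genes were higher in 6 of 10, led by H2-Eb1 (1.79, 1.78e-05), and complement genes in 8 of 33, including Hc, which encodes C5 (1.07, 7.27e-06). Ang was lowest of 45 (-0.63, 1.47e-06). Stab2 was lowest of 45 as well (-0.69, 8.36e-06), but in vehicle arrays alone its difference was -0.33 and did not pass (0.324), while Igfbp3 was higher (0.81, 0.00429), ranking 6 of 45.

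The largest level differences upward from the mean of the other strains were led by Serpina4-ps1, a pseudogene of the serpin family, at 11.44 against a highest other strain of 10.67 (difference 3.10 ± 0.44, limma adjusted p = 1.67e-09). They were followed by the sugar phosphate exchanger Slc37a1 (2.97), the brush border cadherin Cdhr2 (2.88) and the macrophage scavenger receptor Marco (2.55, adjusted p = 1.56e-12). Marco read 3.67, 5.20, 6.33 and 7.54 in the vehicle animals, a spread of almost 4 log2 units within the strain. Sh3gl3, Tiam2, Bcat2 and Loxl2 were higher by 2.19 to 2.50. Cdhr2 and Loxl2 averaged 2.25 and 2.73 in the other strains, under the typical array median, so the sizes of these 2 differences are not measured. The largest differences downward were in the phosphatase Bpnt2 (-3.18 ± 0.24, adjusted p = 2.54e-28), lower in all 3 of its probe sets, and the glutamate transporter Slc1a2 (-3.01), whose second, dimmer probe set was at 0.11. Acacb, the acetyl-CoA carboxylase that restrains fatty acid oxidation, averaged 4.39 against 7.00 (-2.57 ± 0.24, adjusted p = 2.62e-20), but its other probe set was at -0.09. The liver cytokine Lect2 averaged 6.95 against 9.35 (-2.35 ± 0.18, 2.25e-27). Lect2 stood well below the lowest other strain, at 8.51, whereas Bpnt2 at 3.58 was close to the lowest other strain at 3.90. Adgrv1, Nox4, Hint3 and Gstm6 were lower by -2.62 to -2.06, with OR5612 at 2.59 in Adgrv1, again under the array median. The other probe set of Adgrv1 was at -0.12. With vehicle animals alone these 16 genes differed by -3.26 to 3.60, and each passed. The level that picked them includes these same livers, so this is no separate check. The array carries 1 fixed set of probes, and the sequence of each strain under them was not examined.

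**Figure D5:**
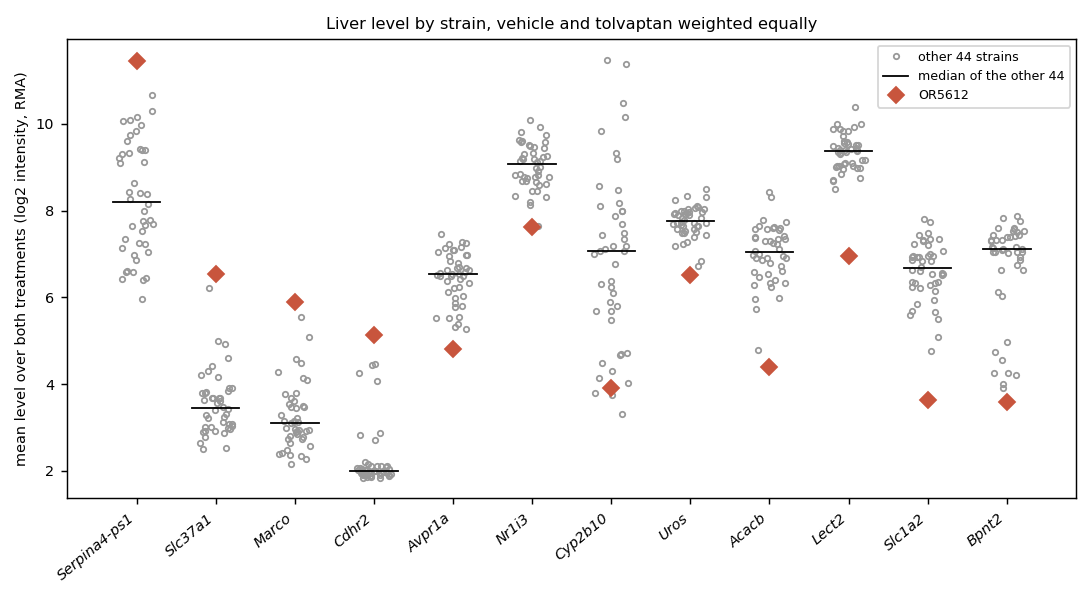
Mean log2 intensity (y axis, RMA, vehicle and tolvaptan weighted equally) of 12 genes in each of the 45 strains, with OR5612 as a red diamond, the other 44 strains as open circles and their median as a line. OR5612 lies above all others in Serpina4-ps1, Slc37a1, Marco and Cdhr2, below all others in Avpr1a, Nr1i3, Uros, Acacb, Lect2, Slc1a2 and Bpnt2, and near the bottom of a wide range in Cyp2b10.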

How the data were processed

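The values are log2 intensities of 42597 probe sets in the table the authors deposited, made with RMA in Affymetrix Expression Console per the submitters' processing notes (versions not given in the sources used here); RMA corrects background and quantile-normalizes all arrays together, which removes overall shifts. Arrays give no read depth, so the number of arrays limits the precision. Names came from GEO's platform annotation: 27691 probe sets had 1 symbol, 493 several and 14376 none. Each gene was represented by its probe set of highest mean, and 14125 of 16670 named genes passed the filter of lying above the array median in at least 4 arrays.

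All 354 arrays entered 1 fit in limma 3.58.1 (R 4.3.3), with a mean for each strain and treatment and a term for scan, and p-values were adjusted by Benjamini-Hochberg over all genes tested. In all, 3 contrasts were taken: OR5612 tolvaptan minus vehicle, the mean of the other 44 strains' differences, and OR5612's level minus theirs. Counts past a threshold in the contrast within OR5612 are descriptions and support nothing, because the strain was chosen by it. Errors of differences are SEs of this fit. P-values measure the spread between these animals.

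Genes were named by a rule: the 15 differences of smallest p in each direction, up to 4 members of each list with the largest difference, the drug genes, up to 6 called genes of the other strains, and 8 genes each way in level. The strain, the lists and the 0.5 limit for off-strain arrays were chosen with earlier results of these data known. Promoter sequences are from RefSeq (GRCm38.p6). The code was tested on simulated data. The dose was not used because its unit is not stated.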

Additional observations from a re-analysis of the deposited data

Results flagged for a closer look

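Among the named genes, 29 of 414 groups of 4 animals had 1 animal far from the other 3 relative to the group's range, where chance flags about 1 in 20. Animal 277 held 13 of the 29 in the tolvaptan group. It stood high in Avpr1a at 5.75, Chordc1 at 7.29 and Hsph1 at 8.77, and low in Cyp1a2 at 9.15, Slc22a7 at 5.18, Slc47a1 at 8.17, C8b at 10.17, Socs2 at 3.66, Gzma at 3.22, Car3 at 7.65, Rhd at 1.71, Dnase1l3 at 4.82 and Sardh at 9.95.
In the tolvaptan group, animal 275 stood apart in Uros at 7.01, Elane at 3.16 and Adgrv1 at 3.21, animal 276 in Gstm4 at 8.7 and Irgm1 at 5.91, and animal 278 in Rrp12 at 3.72, Srxn1 at 6.44 and Itgam at 2.35. In the vehicle group, animal 271 stood apart in Ccdc62 at 2.38, Cyp3a11 at 12.3, Socs3 at 3.64 and Sh3gl3 at 4.37, animal 273 in Tm7sf2 at 10.59 and Nr1d2 at 6.24, and animal 274 in Ppp1r3c at 8.63 and Oit3 at 6.29. The values are log2 intensities.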

How the results depend on the processing

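These counts within OR5612 describe the contrast that chose the strain and test nothing. No gene passed with all arrays. The count was 1 without the arrays off their labelled strain (Ang), and it ran from 0 to 1 when each animal was left out in turn: D7Ertd443e without vehicle animal 273, and Ang without vehicle animal 274 or without tolvaptan animal 275. For the other 44 strains the count of 64 fell to 24 without the off-strain arrays, to 40 with a fold of at least 1.1 and to 14 with strains as the unit; the 6 other settings gave 50 to 71. For the level of OR5612 the count of 1712 fell to 693 with vehicle arrays only and ran from 1351 to 1577 with each OR5612 animal left out. Over 37 named genes and 616 gene and setting pairs, 5 moved by more than 1 SD, all with the mean of all probe sets (Aif1l, Irak1bp1, Hip1, Zfp39 and Abcb1a), and 9 changed sign or came to 0, all with 1 animal left out and all in Cyp3a11, Cyp2b10, Abcb11, Abcc2 and Slc10a1. With each animal left out in turn, list medians ran from 0.11 to 0.36 (ER), 0.15 to 0.32 (acute phase), 0.05 to 0.38 (interferon) and -0.47 to -0.28 (male-biased). The scan 1 pair alone gave -0.08 for the acute phase list. No paired analysis was possible because the labels give no replicate numbers that tie a vehicle animal to a tolvaptan animal. The 4 animals a group and probe sets near the array median limit what can be seen.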
